A study of Mus musculus with 6 samples.

Results

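The genes described here are 41 genes of DNA replication and S phase, the part of the cell cycle in which the genome is copied. They were taken by gene symbol from a list of named replication factors, which was drawn up with earlier results of these data known. They were read out of 23406 gene IDs, each with an FPKM value (fragments scaled for transcript length and library size) in 6 RNA-seq libraries. All 41 were listed and all 41 were among the 12266 genes that reached 1 FPKM in at least 2 libraries, although E2f2 reached it in vehicle libraries alone.

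The libraries came from mouse embryonic fibroblasts at day 7 of reprogramming with OSKM, the factors Oct4, Sox2, Klf4 and Myc that turn somatic cells into induced pluripotent stem cells. KO cells carried 2 floxed Adar1 alleles and received 4OHT, the tamoxifen metabolite that activates inducible Cre (2 libraries), and WT cells carried the same alleles and received vehicle (2 libraries). MUT cells carried 1 floxed allele and 1 E861A allele, which encodes an ADAR1 protein without RNA editing activity, and received 4OHT (1 library), while HET cells carried the alleles of MUT cells and received vehicle (1 library). The labels name no Cre driver and do not say if replicates were grown separately. The p-values therefore rest on the variation seen among these libraries, and that variation may be technical.

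No 4OHT-treated library had intact Adar alleles, so a response to 4OHT and a response to recombination of Adar cannot be told apart. The level of Adar itself was 34.2 and 31.3 FPKM in KO and 33.0 FPKM in MUT libraries, against 19.6 and 19.5 FPKM in WT and 17.0 FPKM in HET libraries. The labels do not give the exons removed, so this total over the gene does not check the labels. Fibroblast markers were present in every library, with a summed level of 2454 and 2475 FPKM in KO and 3140 FPKM in MUT libraries, against 4101 and 3823 FPKM in WT and 3748 FPKM in HET libraries.

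Replication starts at origins, where the origin recognition complex, Cdc6 and Cdt1 load the Mcm2-7 helicase in G1, and where Cdc7 kinase with Dbf4, Mcm10, Cdc45 and the GINS complex turn it on in S phase. DNA polymerases alpha, delta and epsilon then copy the strands behind it, with PCNA as sliding clamp, RFC as clamp loader, RPA on single-stranded DNA, and Fen1 and Lig1 joining the lagging strand. Many of these genes are known to be transcribed in a wave at the G1/S boundary under E2F transcription factors. In bulk RNA, fewer cells in S phase and less RNA per cell cannot be told apart.

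Nearly all of these genes were lower in KO than in WT libraries, from origin licensing to chromatin assembly. In the KO against WT comparison 39 of the 41 fell, none rose, and E2f1 and Rpa1 did not pass the test (limma on log2(FPKM + 1), adjusted p under 0.05 over the 12266 genes). Among all tested genes 57.7% were called, 28.2% lower and 29.5% higher. The median log2 difference of the 41 genes was -1.31, against 0.02 for all tested genes. KO libraries held a median of 33.3% of the mean WT level, with a range over genes of 12.4% to 112%. E2f2, which reached 1 FPKM in vehicle libraries alone, sets the low end of this range and is counted among the genes that fell. A fall past 2-fold on this scale was seen for 34 of the 41 genes, against 9.39% of all tested genes, and both KO libraries were below both WT libraries for 40 of the 41, against 38.0% of all tested genes. The 41 genes together made up 0.0921% and 0.0809% of the FPKM on named genes in KO libraries, against 0.225% and 0.241% in WT libraries.

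The replication genes were also lower in the MUT library than in the HET library. With 1 library on each side there is no replicate check and no test. The 41 genes held a median of 41.4% of the HET level in MUT, with a range of 18.8% to 112%, and 40 of the 41 were below HET. The share of all tested genes below HET was not counted. The median log2 difference between MUT and HET was -1.15 for the 41 genes, against 0.008 for all tested genes. At a threshold of 2-fold on the log2(FPKM + 1) scale 29 of the 41 were lower and none higher, against 8.77% lower and 4.93% higher among all tested genes. Their share of the FPKM on named genes was 0.124% in MUT and 0.296% in HET.

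**Figure D1:**
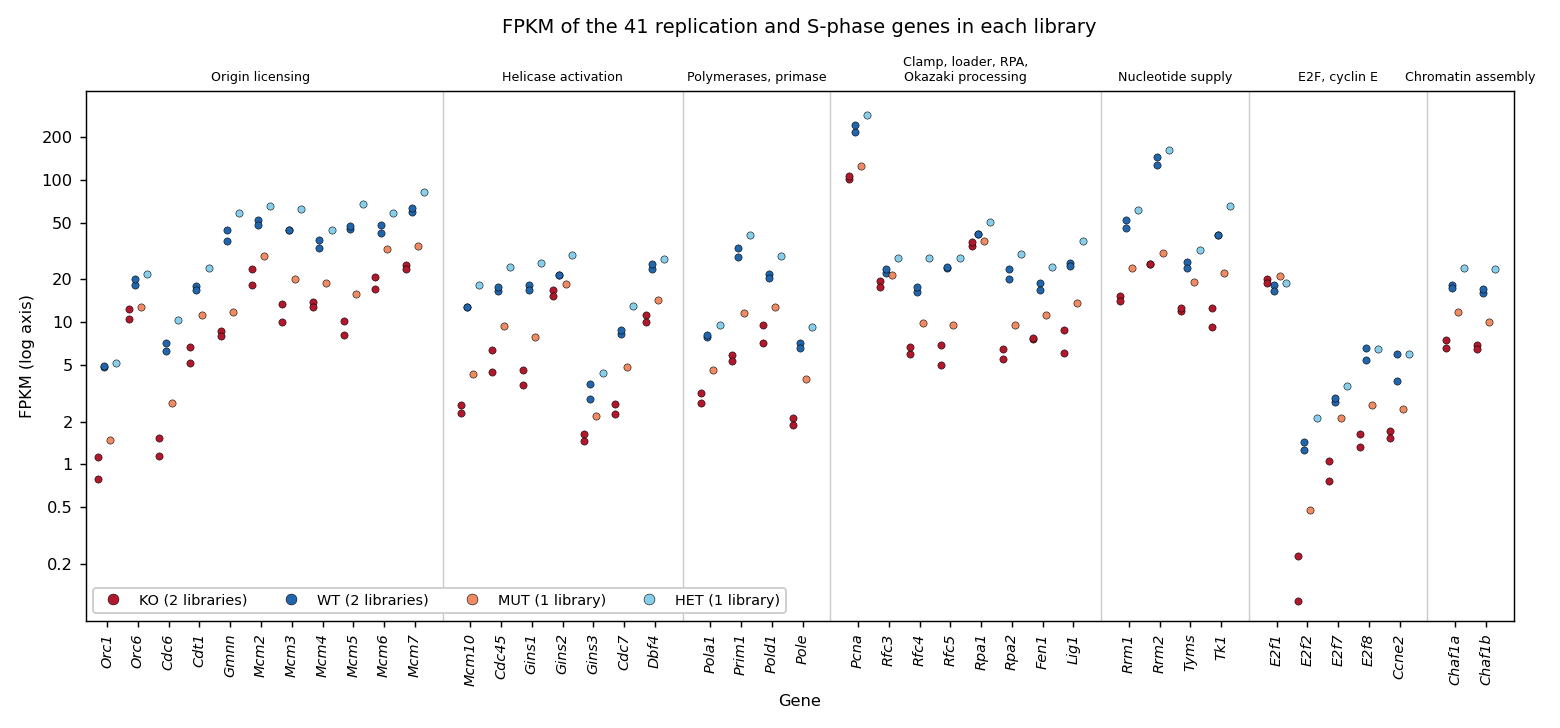
FPKM of each of the 41 genes (log axis) in every library, with genes grouped by role and KO, WT, MUT and HET drawn from left to right within each gene. For 40 of the 41 genes both KO points lie below both WT points, and for 40 of the 41 the MUT point lies below the HET point; E2f1 is the exception in both.

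Promoter sequences were available for 35 of the 41 genes, in windows from 250 bases before to 50 bases after the RefSeq start (GRCm38.p6). Those not searched were Gmnn, Mcm4, Gins1, Gins2, Pole and Ccne2. Windows were searched on both strands for TTTNNCGC, a core of E2F sites, TTTGAA, a core of the CHR element bound by repressor complexes of the cell cycle, and CCAAT, the core bound by NF-Y. The motif TTTNNCGC was found for 15 of the 35 genes (42.9%), against 5.93% of 27025 genes with a window. CCAAT was found for 62.9% of the 35 genes, against 41.1% of all, and TTTGAA for 22.9%, against 20.2% of all. The 41 windows of these 35 genes also differ in base composition, with a median of 24 CG dinucleotides, against 7 over all windows. A match of letters is a description and not a measured binding site.

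The stretches below are shown because they come from genes whose levels are compared in the next paragraphs, with TTTNNCGC in capitals on either strand, so a match on the other strand appears as its reverse complement. They are given 5' to 3' on the strand of the gene, and all lie before the RefSeq start. In GENCODE M21 some genes start further upstream. There the stretches of Cdc6, Gins3 and Mcm7 lie within the gene, and those of Orc1 and Rfc3 cross its start. Mcm5, at chr8:75109329-75109408 (plus strand), and Mcm6, at chr1:128359736-128359835 (minus strand), each hold a pair of overlapping matches on opposite strands, and Mcm6 a further one. Mcm7 is at chr5:138172004-138172083 (minus strand), Orc1 at chr4:108579374-108579453 (plus strand), Cdc6 at chr11:98907971-98908050 (plus strand) and Gins3 at chr8:95633479-95633558 (plus strand). Pola1 is at chrX:93632256-93632335 (minus strand), E2f7 at chr10:110745209-110745288 (plus strand) and Rfc3 at chr5:151651209-151651288 (minus strand). Rrm2, at chr12:24708134-24708213 (plus strand), had no TTTNNCGC in its window and is shown with CCAAT in capitals.
Mcm5: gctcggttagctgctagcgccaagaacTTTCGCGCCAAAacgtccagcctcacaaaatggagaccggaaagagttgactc
Mcm6: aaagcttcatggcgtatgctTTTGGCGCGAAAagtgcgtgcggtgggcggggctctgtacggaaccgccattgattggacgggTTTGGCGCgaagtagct
Mcm7: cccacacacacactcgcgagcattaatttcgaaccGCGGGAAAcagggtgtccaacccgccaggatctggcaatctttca
Orc1: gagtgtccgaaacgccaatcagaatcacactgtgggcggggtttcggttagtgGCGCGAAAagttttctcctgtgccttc
Cdc6: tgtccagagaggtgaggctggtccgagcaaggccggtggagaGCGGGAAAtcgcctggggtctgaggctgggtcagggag
Gins3: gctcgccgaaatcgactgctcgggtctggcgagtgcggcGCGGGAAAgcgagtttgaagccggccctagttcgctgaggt
Pola1: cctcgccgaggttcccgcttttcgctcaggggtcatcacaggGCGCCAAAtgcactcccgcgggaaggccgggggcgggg
E2f7: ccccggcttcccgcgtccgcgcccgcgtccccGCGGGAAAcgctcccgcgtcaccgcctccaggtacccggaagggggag
Rfc3: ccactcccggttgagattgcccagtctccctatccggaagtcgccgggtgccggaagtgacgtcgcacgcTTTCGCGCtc
Rrm2: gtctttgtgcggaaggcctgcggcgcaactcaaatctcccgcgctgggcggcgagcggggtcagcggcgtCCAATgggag

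The genes with and without a match were compared by their medians, with no test. The median log2 difference between KO and WT was -1.25 for the 15 genes with TTTNNCGC, all of which fell, and -1.37 for the 20 genes with a window but no match, of which 18 fell. Rfc3 and E2f2, with 2 matches each, stood at 81.4% and 12.4% of WT, and Rrm2, without a match, at 19.0%. E2f2 was under 1 FPKM in both KO libraries, so its share is that of a very low value.

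All 11 origin licensing genes fell in KO libraries, with a median of 34.0% of the WT level and a median log2 difference of -1.42. Mcm5, a subunit of the Mcm2-7 ring, had 10.1 and 8.05 FPKM in KO libraries, against 44.7 and 47.3 FPKM in WT libraries. The same gene had 15.8 FPKM in MUT and 66.96 FPKM in HET. Every 4OHT library was thus below every vehicle library by a wide gap, and the log2 difference between KO and WT was -2.23 (SE 0.12, limma adjusted p = 1.34e-07). Gmnn encodes geminin, the inhibitor that holds Cdt1 in check outside G1. It had 8.71 and 8.03 FPKM in KO, against 37.1 and 44.3 FPKM in WT libraries, with 11.8 FPKM in MUT and 58.1 FPKM in HET (KO minus WT -2.15 in log2 units, SE 0.11, limma adjusted p = 1.35e-07). Its partner Cdt1 had 6.70 and 5.12 FPKM in KO, against 18.0 and 16.8 FPKM in WT libraries, with 11.1 FPKM in MUT and 24.0 FPKM in HET.

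Cdc6, which recruits the helicase to origins, had 1.53 and 1.15 FPKM in KO, against 6.23 and 7.15 FPKM in WT libraries, and 2.69 FPKM in MUT, against 10.3 FPKM in HET. Orc1, the cell cycle regulated subunit of the origin recognition complex, had 1.12 and 0.785 FPKM in KO, against 4.81 and 4.93 FPKM in WT libraries, and 1.47 FPKM in MUT, against 5.19 FPKM in HET. Both are low in KO, where the log2(FPKM + 1) scale understates a fold difference: as a share of WT the levels were 20.04% for Cdc6 and 19.5% for Orc1. Orc6, another subunit of the complex, kept a larger share, with 10.5 and 12.3 FPKM in KO, against 18.1 and 20.2 FPKM in WT libraries (log2 difference -0.70, SE 0.11, limma adjusted p = 0.000381). Mcm2, Mcm3, Mcm4, Mcm6 and Mcm7 stood at 41.5%, 26.5%, 37.5%, 42.0% and 39.5% of WT.

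The RNA levels of the subunits of the Mcm2-7 ring did not keep their proportions. The proteins assemble in equal numbers, but protein was not measured. The ratio of the highest to the lowest of the 6 subunits was 2.50 and 2.91 in KO libraries, against 1.82 and 1.69 in WT libraries, and 2.15 in MUT, against 1.85 in HET. Mcm7 was highest in every library, whereas the lowest was Mcm5 in KO and MUT and Mcm4 in WT and HET. Mcm7 shares exon bases with Cops6 and Ap4m1 on the other strand, so its level may hold their reads, which was not tested. The ratio of Mcm5 to Mcm6 was 0.485 and 0.473 in KO and 0.484 in MUT, against 1.06 and 0.992 in WT and 1.15 in HET, so that the 3 4OHT libraries lay together and apart from the 3 vehicle libraries. These ratios use per-length values, were picked out after the values were seen and were not tested.

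**Figure D2:**
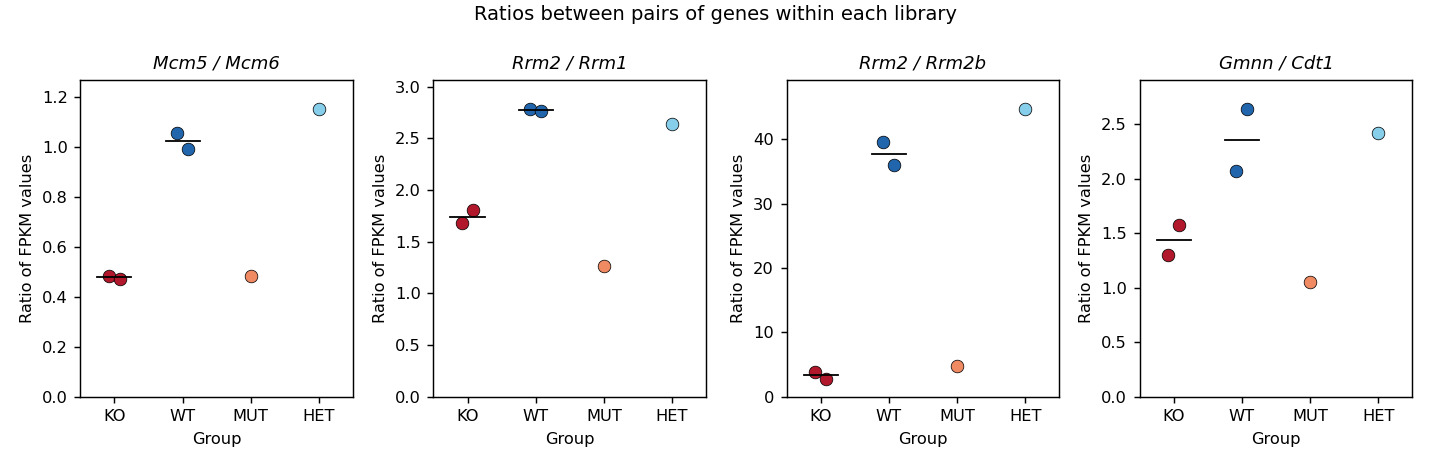
Ratios of FPKM values for 4 pairs of genes within each library, with KO, WT, MUT and HET from left to right, 1 point per library and a line at the mean of the 2 replicates. Mcm5 / Mcm6 lies at 0.473 to 0.485 in KO and MUT libraries, against 0.992 to 1.15 in WT and HET libraries, and Rrm2 / Rrm2b at 2.84 to 4.86 in KO and MUT, against 36.0 to 44.8 in WT and HET.

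The 7 genes of helicase activation all fell, with a median of 31.7% of WT and a median log2 difference of -1.46. Mcm10, which joins the helicase to the polymerases, had 2.61 and 2.3002 FPKM in KO, against 12.7 and 12.7 FPKM in WT libraries, and 4.28 FPKM in MUT, against 18.2 FPKM in HET (KO minus WT -1.99 in log2 units, SE 0.11, limma adjusted p = 1.73e-07). The kinase gene Cdc7 had 2.65 and 2.27 FPKM in KO, against 8.22 and 8.76 FPKM in WT libraries, while its activator Dbf4 had 11.2 and 9.93 FPKM in KO, against 23.6 and 25.6 FPKM in WT libraries. Cdc45 stood at 31.7% of WT and Gins1, a GINS subunit, at 23.4%. Both KO libraries were below both WT libraries for all 7, against 38.0% of all tested genes.

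The other GINS subunits had smaller differences. Gins3 had 1.63 and 1.45 FPKM in KO, against 2.87 and 3.65 FPKM in WT libraries (log2 difference -0.74, SE 0.13, limma adjusted p = 0.000795). Gins2 had 16.8 and 15.2 FPKM in KO, against 21.5 and 21.5 FPKM in WT libraries, and 18.4 FPKM in MUT, against 29.5 FPKM in HET (KO minus WT -0.40, SE 0.10, limma adjusted p = 0.00566). The entry for Gins2 in the deposited files spans 360 kb (chr8:120228612-120589075), 33.8 times the annotated gene, which overlaps Gse1 on the other strand. Its level may therefore hold reads of another gene, which was not tested. In all, 12 of the 41 genes have an entry that names another gene, spans over 2 times the annotated gene or shares exon bases with another coding gene. These are Orc6, Mcm7, Cdc45, Gins2, Rfc4, Rfc5, Fen1, Lig1, Tk1, E2f1, Ccne2 and Chaf1a. Of the other 29, 28 fell, with a median log2 difference of -1.39.

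All 4 polymerase and primase genes fell, to a median of 33.1% of WT. Prim1, the catalytic subunit of the primase that starts each new strand, had 5.87 and 5.29 FPKM in KO, against 28.4 and 32.9 FPKM in WT libraries. It had 11.6 FPKM in MUT, against 40.9 FPKM in HET. The KO and WT libraries lay far apart, with a log2 difference of -2.26 (SE 0.11, limma adjusted p = 8.57e-08). The catalytic subunits Pola1, Pold1 and Pole stood at 37.0%, 39.6% and 29.2% of WT.

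Of the 8 genes of the clamp, its loader, RPA and lagging strand processing, 7 fell, with a median of 40.3% of WT. Pcna, the most abundant of the 41 genes, had 102 and 105 FPKM in KO, against 216 and 240 FPKM in WT libraries, and 125 FPKM in MUT, against 286 FPKM in HET (KO minus WT -1.13 in log2 units, SE 0.10, limma adjusted p = 4.9e-06). Fen1, the flap endonuclease, stood at 43.2% of WT, and Lig1, the ligase that seals the lagging strand, at 29.4%. The loader subunits did not move alike: Rfc4 stood at 37.4% of WT and Rfc5 at 24.6%, whereas Rfc3 had 19.5 and 17.7 FPKM in KO, against 22.0 and 23.7 FPKM in WT libraries. The difference of Rfc3 was -0.28 (SE 0.10, limma adjusted p = 0.0341). Its groups did not overlap, but its call was lost without KO replicate 2 (adjusted p = 0.169), without WT replicate 1 (0.0686), without WT replicate 2 (0.180) and when all genes were kept without a filter (0.0690).

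RPA binds single-stranded DNA as a complex of 3 subunits. Rpa2 had 6.43 and 5.49 FPKM in KO, against 19.9 and 23.4 FPKM in WT libraries, and 9.51 FPKM in MUT, against 30.2 FPKM in HET (KO minus WT -1.70, SE 0.12, limma adjusted p = 9.48e-07). Rpa1, the large subunit, had 34.0 and 36.6 FPKM in KO, against 41.3 and 41.8 FPKM in WT libraries, and 37.2 FPKM in MUT, against 50.5 FPKM in HET. Its KO libraries lay below its WT libraries, but the log2 difference of -0.23 (SE 0.09, 95% interval -0.44 to -0.02) did not pass (limma adjusted p = 0.0584). It passed with median-of-ratios scaling (adjusted p = 0.0357) and with quantile normalization (0.0118).

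The 4 genes of nucleotide supply fell to a median of 28.4% of WT, with a median log2 difference of -1.74. Rrm2, the small subunit of the ribonucleotide reductase that makes deoxyribonucleotides in S phase, had 25.6 and 25.6 FPKM in KO, against 127 and 143 FPKM in WT libraries. It had 30.4 FPKM in MUT, against 162 FPKM in HET. The KO and WT levels lay far apart, and the log2 difference of -2.35 (SE 0.10, limma adjusted p = 3.89e-08) was the largest of the 41 genes on the log2(FPKM + 1) scale. Rrm1, the large subunit, had 15.3 and 14.1 FPKM in KO, against 45.5 and 51.8 FPKM in WT libraries. Tk1, the cytosolic thymidine kinase of dividing cells, had 12.5 and 9.21 FPKM in KO, against 40.6 and 40.9 FPKM in WT libraries. Tyms, the thymidylate synthase, stood at 48.7% of WT.

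Rrm2b, which encodes an alternative small subunit that serves quiescent and damaged cells, went the other way. It had 6.65 and 9.01 FPKM in KO, against 3.20 and 3.97 FPKM in WT libraries, and 6.27 FPKM in MUT, against 3.61 FPKM in HET (KO minus WT 0.94 in log2 units, SE 0.15, limma adjusted p = 0.000317). The ratio of Rrm2 to Rrm2b was 3.85 and 2.84 in KO and 4.86 in MUT, against 39.6 and 36.0 in WT and 44.8 in HET. The ratio of Rrm2 to Rrm1 was 1.68 and 1.81 in KO and 1.26 in MUT, against 2.79 and 2.76 in WT and 2.64 in HET. In both ratios all 4OHT libraries lay below all vehicle libraries. The ratio of Gmnn to Cdt1 was likewise lower, at 1.30 and 1.57 in KO and 1.05 in MUT, against 2.07 and 2.64 in WT and 2.42 in HET. None of these ratios was tested.

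Of the 5 genes for E2F factors and cyclin E, 4 fell. E2f8, a repressor of S-phase genes that is itself induced late in S phase, had 1.64 and 1.33 FPKM in KO, against 6.52 and 5.41 FPKM in WT libraries, and 2.61 FPKM in MUT, against 6.51 FPKM in HET (KO minus WT -1.49, SE 0.13, limma adjusted p = 4.9e-06). E2f7, its close relative, had 1.06 and 0.770 FPKM in KO, against 2.73 and 2.94 FPKM in WT libraries. E2f2, an activator, was the lowest of the 41 genes, with 0.228 and 0.109 FPKM in KO, against 1.45 and 1.27 FPKM in WT libraries. E2f2 was tested only through its level in vehicle libraries, so its call is a description. Ccne2, a cyclin that activates Cdk2 at the G1/S boundary, had 1.73 and 1.54 FPKM in KO, against 3.82 and 5.99 FPKM in WT libraries.

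E2f1, an activator at the G1/S boundary, was the only one of the 41 genes that was not lower. It had 19.99 and 18.7 FPKM in KO, against 18.1 and 16.5 FPKM in WT libraries, and 21.0 FPKM in MUT, against 18.7 FPKM in HET. The groups did not overlap, but the log2 difference of 0.15 (95% interval -0.07 to 0.38) did not pass (limma adjusted p = 0.219). The entry in the deposited files (chr2:154544145-154569911) is shared with the neighbouring gene Necab3, so the value cannot be assigned to E2f1 alone. The chromatin assembly genes Chaf1a and Chaf1b, subunits of the complex that loads histones behind the fork, both fell and stood at 39.4% and 40.5% of WT.

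**Figure D3:**
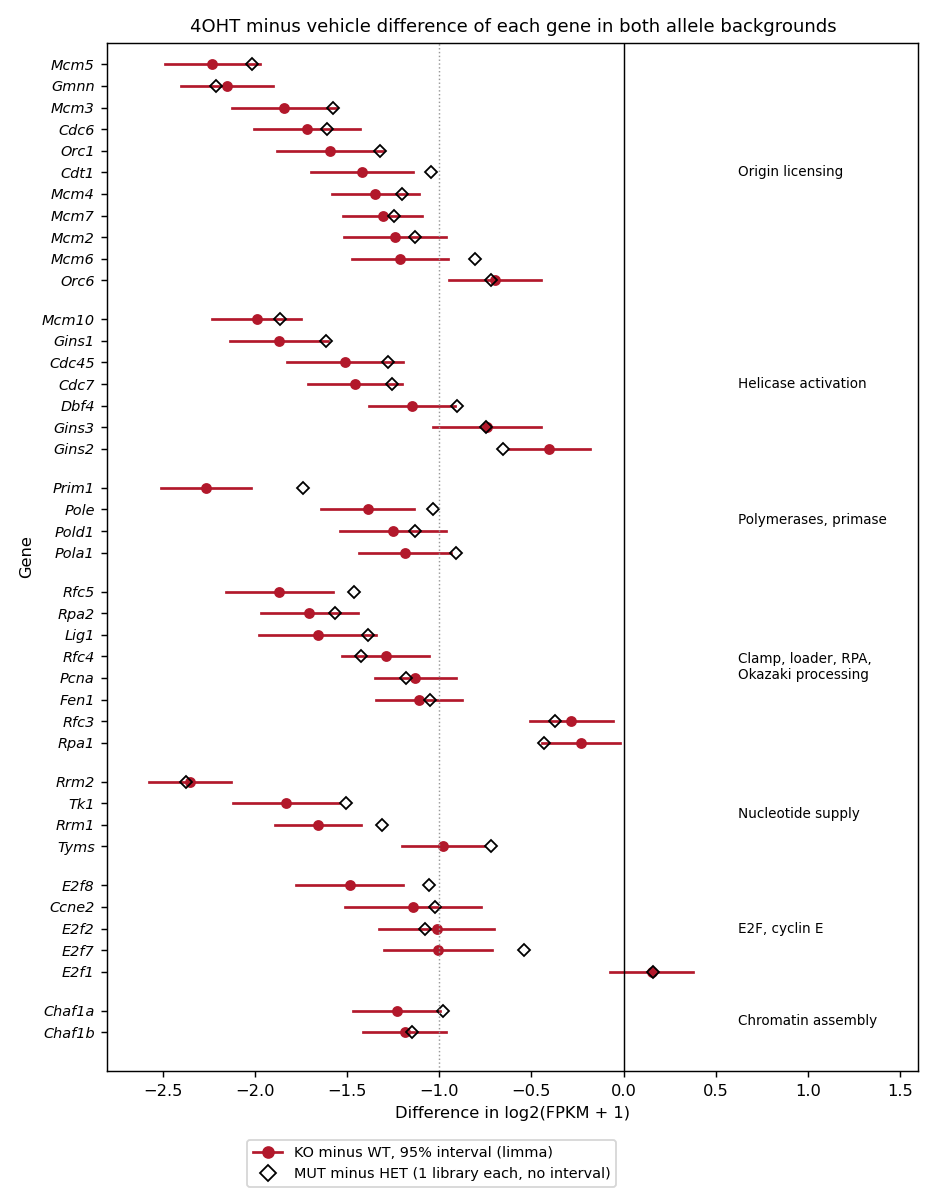
Difference in log2(FPKM + 1) of each of the 41 genes, by role, for KO minus WT (filled points with limma 95% intervals, 2 libraries each) and for MUT minus HET (open diamonds, 1 library each, no interval). The dotted line marks a 2-fold fall. Rrm2 lies furthest left at -2.35, and Rfc3, Rpa1 and E2f1 lie nearest to 0.

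Other genes of the same pathways, taken from lists of 92 genes that are not among the 41, were mixed. Of the 92, 55 fell, 8 rose and 29 did not pass, with a median log2 difference of -0.53 between KO and WT. Among 33 further replisome genes 23 fell and 1 rose. Pold2, a subunit of polymerase delta, had 21.6 and 18.1 FPKM in KO, against 50.8 and 48.6 FPKM in WT libraries, and Chtf18, of an alternative clamp loader, had 2.79 and 2.35 FPKM in KO, against 11.9 and 12.7 FPKM in WT libraries. Orc4 was the one that rose, with 26.9 and 27.8 FPKM in KO, against 15.7 and 19.0 FPKM in WT libraries (log2 difference 0.63, limma adjusted p = 0.000659). Among subunits of the origin recognition complex, Orc1, Orc5 and Orc6 fell, Orc4 rose, and Orc2 and Orc3 did not pass. Of these Orc2, Orc3 and Orc5 were picked out after their values were seen. Orc5 had 11.6 and 11.01 FPKM in KO, against 16.2 and 16.9 FPKM in WT libraries (log2 difference -0.51, limma adjusted p = 0.00126). Orc2 had 13.9 and 13.6 FPKM in KO, against 13.0 and 14.6 FPKM in WT libraries, and its groups overlapped.

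Of 15 further genes of nucleotide metabolism, 5 fell and 4 rose, with a median log2 difference of 0.07. These shares are near those of all tested genes, 28.2% lower and 29.5% higher, and say nothing particular about the list. Those that fell include Dut, the dUTPase, with 12.8 and 12.1 FPKM in KO, against 38.5 and 41.5 FPKM in WT libraries, and Shmt1, a serine hydroxymethyltransferase of thymidylate synthesis, with 8.23 and 8.61 FPKM in KO, against 26.7 and 29.1 FPKM in WT libraries. The 4 that rose were Rrm2b, Tk2, a mitochondrial thymidine kinase, Samhd1, which breaks down deoxyribonucleotides, and Ctps, a CTP synthase. Samhd1 had 45.0 and 40.3 FPKM in KO, against 26.7 and 27.0 FPKM in WT libraries, and 47.6 FPKM in MUT, against 26.5 FPKM in HET. Tk2 had 11.4 and 12.9 FPKM in KO, against 8.89 and 7.57 FPKM in WT libraries. The call of Ctps was lost without WT replicate 1 (adjusted p = 0.0593).

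Of 17 further E2F, Rb and G1/S genes, 9 fell and 1 rose. Ccna2, the S-phase cyclin, had 7.995 and 6.56 FPKM in KO, against 39.1 and 43.2 FPKM in WT libraries, and its kinase partner Cdk2 had 10.2 and 9.84 FPKM in KO, against 24.7 and 22.4 FPKM in WT libraries. E2f6, a repressor of G1/S genes, rose, with 27.0 and 31.2 FPKM in KO, against 15.4 and 17.5 FPKM in WT libraries. Of 15 fork checkpoint genes, 10 fell and 2 rose. Timeless, a fork protection gene whose entry is shared with Apon, had 3.24 and 2.24 FPKM in KO, against 9.54 and 9.16 FPKM in WT libraries. Dtl, an adaptor of the ubiquitin ligase that degrades Cdt1, had 4.28 and 3.70 FPKM in KO, against 9.76 and 11.6 FPKM in WT libraries. The higher ones were Rad9a, a subunit of the checkpoint clamp, whose call was lost without the filter (adjusted p = 0.0552), and an entry shared by Atrip and Trex1. Of 12 genes of S-phase chromatin, 8 fell and none rose. The histone chaperone Nasp had 13.7 and 13.4 FPKM in KO, against 69.3 and 77.1 FPKM in WT libraries, and Uhrf1, which brings the maintenance methyltransferase to new DNA, had 10.7 and 7.79 FPKM in KO, against 53.1 and 54.5 FPKM in WT libraries.

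Genes of G2 and mitosis were lower in KO libraries, and inhibitors of cyclin-dependent kinases were mixed. All 20 genes of the mitotic list fell, with a median log2 difference of -2.31 and a median of 15.6% of WT, and in MUT they stood at a median of 27.7% of HET. Ccnb1, the mitotic cyclin, had the largest difference of the list (-3.03 in log2 units). Ube2c, a ubiquitin-conjugating enzyme of mitotic exit, had 17.5 and 15.3 FPKM in KO, against 129 and 119 FPKM in WT libraries. Of 7 inhibitor genes, 4 rose, and Cdkn1b, Cdkn2c and Cdkn2d fell, against 29.5% higher and 28.2% lower among all tested genes. Between MUT and HET none of the 7 was past 2-fold, with a median log2 difference of -0.11. Cdkn2c had 8.82 and 9.89 FPKM in KO, against 26.5 and 26.4 FPKM in WT libraries, and Cdkn1c had 18.3 and 20.7 FPKM in KO, against 8.20 and 8.31 FPKM in WT libraries. Cdkn1a, the p21 gene, named after its value was seen, had 479 and 514 FPKM in KO, against 299 and 276 FPKM in WT libraries.

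**Figure D4:**
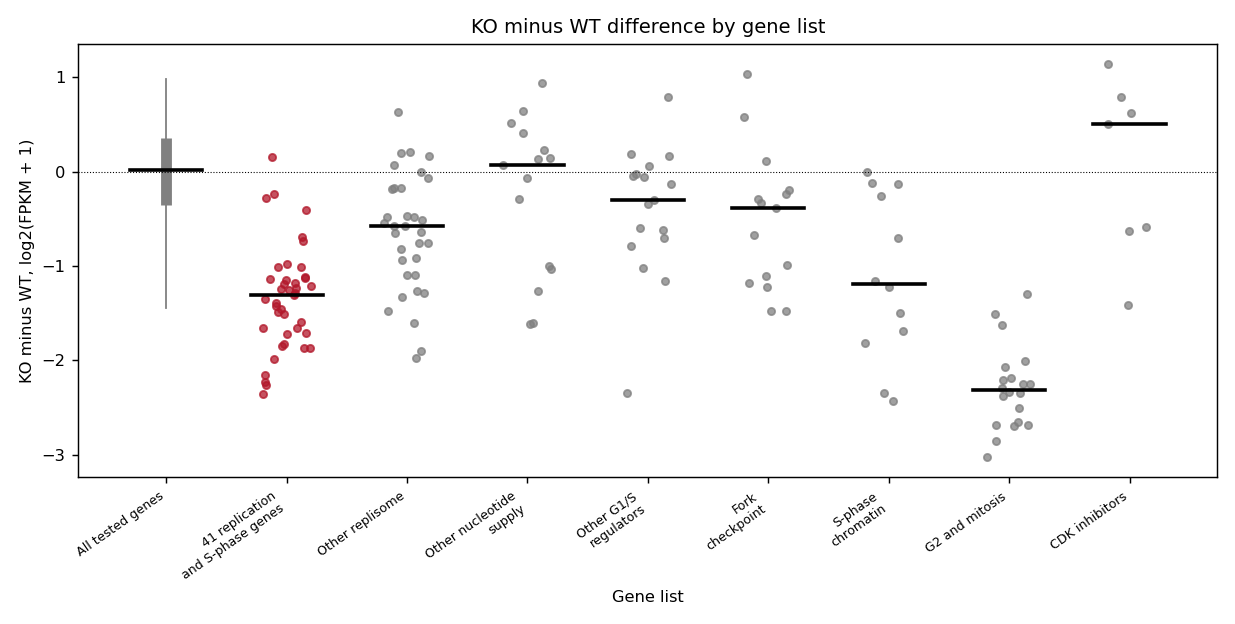
KO minus WT difference in log2(FPKM + 1) for the 41 replication and S-phase genes, for 5 lists of other genes of the same pathways, for mitotic genes and for inhibitors of cyclin-dependent kinases (points are genes, black lines are medians). For all 12266 tested genes the median, the middle 50% (thick bar) and the 5th to 95th percentiles (thin bar) are drawn; the medians are -1.31 for the 41 genes, -2.31 for mitotic genes and 0.02 for all tested genes.

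Markers of pluripotent cells moved with the replication genes. The 8 pluripotency markers summed to 30.0 and 15.6 FPKM in KO and 43.6 FPKM in MUT libraries, against 620 and 494 FPKM in WT and 622 FPKM in HET libraries, and all 8 fell in KO. Among them Pou5f1, the gene of Oct4, and Sox2 are also reprogramming factors. Their levels may hold reads of the delivered copies, which was not tested. Keratinocyte markers summed to 32.6 and 33.2 FPKM in KO and 16.0 FPKM in MUT, against 127 and 130 FPKM in WT and 177 FPKM in HET. The 6 macrophage markers with an entry of their own summed to 8.06 and 6.46 FPKM in KO and 13.0 FPKM in MUT, against 26.4 and 22.4 FPKM in WT and 44.6 FPKM in HET, with Ptprc, Adgre1 and Csf1r under 1 FPKM in every library. Laptm5 made up most of that sum in WT libraries, with 3.31 and 2.83 FPKM in KO, against 23.4 and 19.9 FPKM in WT libraries, and of the 4 macrophage markers tested 2 fell, 1 rose and 1 did not pass. Neural markers summed to 41.7 and 55.8 FPKM in KO and 48.7 FPKM in MUT, against 144 and 158 FPKM in WT and 175 FPKM in HET. In the keratinocyte and the neural list, 2 of 5 markers each were under 1 FPKM in every library. The 3 tested in each list fell in KO. Endothelial and muscle markers summed to between 3.13 and 13.2 FPKM in every library. Of the 8 fibroblast markers 5 fell and 1 rose in KO, with a median log2 difference of -1.31, beside -1.31 for the replication genes. Between MUT and HET the medians lay apart, at -0.53 for the fibroblast markers and -1.15 for the replication genes. Dcn, a matrix proteoglycan, had 6.12 and 6.89 FPKM in KO, against 58.4 and 62.1 FPKM in WT libraries, whereas Vim, the intermediate filament vimentin, had 1720 and 1842 FPKM in KO, against 1728 and 1737 FPKM in WT libraries. The part of any of these cell types in the lower level of the replication genes was not tested.

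Whether the 4OHT difference itself differed between the allele backgrounds was tested as the MUT minus HET difference less the KO minus WT difference. None of the 41 genes passed (limma, adjusted p of at least 0.179), against 4.01% of all tested genes called, 3.07% higher and 0.946% lower. At an unadjusted p under 0.05 there was 1 of the 41, against 17.3% of all tested genes. The median of this difference was 0.14 for the 41 genes and -0.03 for all tested genes. A missed threshold does not show that the effects were alike: the 95% interval reached 0.43 log2 units to each side for the median gene. For Rrm2 the difference was -0.02 (95% interval -0.40 to 0.36), and for Gmnn it was -0.06 (-0.49 to 0.37). Prim1 had the lowest p, with a difference of 0.53 (95% interval 0.10 to 0.95, adjusted p = 0.179), and it passed without KO replicate 1 (adjusted p = 0.0484). Over all genes the count of calls was 492, and it was 1192 without KO replicate 1, 904 without KO replicate 2, 286 without WT replicate 2 and 0 with no filter on low values. The lone MUT and HET libraries are assumed to vary like the replicates of KO and WT.

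With the allele background as a covariate, 4OHT against vehicle over all 6 libraries called 40 of the 41 genes lower and none higher, against 57.4% of all tested genes called, 28.2% lower and 29.2% higher. E2f1 was again the exception (adjusted p = 0.149). The 40 include E2f2, which was tested only through its level in vehicle libraries. Rpa1 passed in this fit, with a log2 difference of -0.30 (SE 0.09, limma adjusted p = 0.0173), as did Rfc3 with -0.31 (SE 0.09, adjusted p = 0.0136). The call of Rpa1 was lost without KO replicate 1 (adjusted p = 0.0650) and without WT replicate 2 (0.0512), and that of Rfc3 without KO replicate 2 (0.0503) and without WT replicate 2 (0.0584).

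The libraries with an E861A allele had higher levels of these genes than those with 2 floxed alleles under the same treatment. Of the genes named below, Rfc4 and Tk1 have entries that overlap Eif4a2 and Afmid. Their levels may hold reads of those genes, which was not tested. The HET library was above both WT libraries for 39 of the 41 genes, against 41.8% of all tested genes, with a median ratio to the WT mean of 1.34. In the fit of 4 group means 12 of the 41 were called higher and none lower, against 5.27% and 8.58% of all tested genes. Rfc4 had the lowest p, with 28.0 FPKM in HET, against 16.2 and 17.6 FPKM in WT libraries (log2 difference 0.70, SE 0.13, limma adjusted p = 0.006). Tk1 had 65.0 FPKM in HET, against 40.6 and 40.9 FPKM in WT libraries (0.66, SE 0.16, adjusted p = 0.0217). These calls rest on single libraries: the count of 12 was 24 without KO replicate 1 and without KO replicate 2, 1 without WT replicate 1, 2 without WT replicate 2, 7 with a pseudocount of 0.1 and 0 with no filter on low values. The count over all genes, 1699, ranged over these omissions from 1018 without WT replicate 2 to 2597 without KO replicate 1, with 1057 without WT replicate 1 and 2596 without KO replicate 2.

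The MUT library was above both KO libraries for all 41 genes, against 34.6% of all tested genes, with a median ratio to the KO mean of 1.57. The fit called 26 of the 41 higher and none lower, against 6.6% and 4.72% of all tested genes. Prim1 had 11.6 FPKM in MUT, against 5.87 and 5.29 FPKM in KO libraries (log2 difference 0.93, SE 0.13, limma adjusted p = 0.00157). Tk1 had 22.2 FPKM in MUT, against 12.5 and 9.21 FPKM in KO libraries (0.98, SE 0.16, adjusted p = 0.00299), and Cdt1 had 11.1 FPKM in MUT, against 6.70 and 5.12 FPKM in KO libraries. Rrm2 did not pass, with 30.4 FPKM in MUT, against 25.6 and 25.6 FPKM in KO libraries (0.24, 95% interval -0.03 to 0.51, adjusted p = 0.262). The count of 26 was 22 to 29 with 1 library left out and 0 with no filter on low values, and the count over all genes, 1389, was 2144 without KO replicate 1. MUT stayed below both WT libraries for 40 of the 41 genes, and the share of all tested genes that did so was not counted. HET and MUT are 1 library each, so a property of the allele and a property of that culture cannot be told apart.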

How the data were processed

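RNA was extracted with TRIzol, depleted of ribosomal RNA and made into random-fragment libraries, per the labels' protocols. The authors deposited 1 table of FPKM values per library. The submitters' processing notes name TopHat2 2.1.1, Bowtie2 2.3.0, Cufflinks 2.2.1 and the GRCm38 genome. The sources used here do not give the role of each tool, the annotation, the strand setting or the scaling, and low values fell on no regular steps, so depth is unknown and no counting error is given.

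Each table held 24879 rows, of which 1021 named no gene and held 8.26% to 14.2% of the FPKM. For 314 IDs on several rows, the highest by mean was used. Tests ran on log2(FPKM + 1) for genes at 1 FPKM or more in at least 2 libraries, with limma 3.58.1 in R 4.3.3 (eBayes with trend, two-sided) and Benjamini-Hochberg adjustment over 12266 genes. The script was tested on simulated data. Fold changes are on this scale and understate those of low genes. Replicates correlated at r = 0.995 in KO and 0.995 in WT, and 16 and 12 genes lay 2-fold apart. Loci come from the files or GENCODE M21, and promoters from RefSeq (GRCm38.p6).

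The 41 genes and all other lists were chosen with earlier results of these data known. Members were all reported. From each other list the 2 genes with the largest absolute KO minus WT log2 difference among those with a mean of at least 5 FPKM over the KO and WT libraries were named, with any gene called against the list's main direction. Other named genes were picked after their values were seen. Alternatives were the pseudocount, scaling, filter, row choice, replicate block, spread and leaving out each replicate; leaving out entries shared with other genes was added after seeing the data.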

Additional observations from a re-analysis of the deposited data

Results flagged for a closer look

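In the fit of all 6 libraries the 4OHT difference of Cdkn1c, Cdkn2c, Kif11 and Mki67 differed between the allele backgrounds. They come from the pathway, mitotic and inhibitor lists, and cell type markers such as Dcn and Vim were not looked through. The median of this difference was 0.65 for the fibroblast markers (range 0.18 to 1.12), against -0.03 for all tested genes. Each value is the MUT minus HET difference less the KO minus WT difference on the log2(FPKM + 1) scale, and MUT and HET have 1 library each. Cdkn1c, a gene for an inhibitor of cyclin-dependent kinases, differed by -1.25 (limma adjusted p = 0.00455): it had 21.4 FPKM in MUT and 23.1 FPKM in HET, while KO libraries had 18.3 and 20.7 FPKM, against 8.20 and 8.31 FPKM in WT libraries. Its call was lost with no filter (adjusted p = 0.126). Cdkn2c, another such inhibitor gene, differed by 0.90 (limma adjusted p = 0.0201), with 14.4 FPKM in MUT, against 20.9 FPKM in HET. Its call was lost without WT replicate 1 (adjusted p = 0.0640), without WT replicate 2 (0.0663) and with no filter (0.150). The mitotic kinesin gene Kif11 differed by 0.75 (limma adjusted p = 0.0447), with 8.15 FPKM in MUT, against 27.3 FPKM in HET. Its call was lost with quantile normalization (adjusted p = 0.0525), without WT replicate 1 (0.0807), without WT replicate 2 (0.135) and with no filter (0.172). The proliferation marker Mki67 differed by 0.76 (limma adjusted p = 0.0494), with 7.13 FPKM in MUT, against 21.9 FPKM in HET. Its call was lost with quantile normalization (adjusted p = 0.0751), without WT replicate 1 (0.132), without WT replicate 2 (0.101) and with no filter (0.183). No group has the 4 libraries that a check for a lone outlying library needs.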

How the results depend on the processing

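Across the alternatives run, 38 to 40 of the 41 genes fell in KO against WT and none rose, and 28 of 29 fell when entries shared with other genes or spanning over 2 times the gene were left out. With the replicate block 40 fell and 7959 genes in all were called, against 7080 without it. The difference between the replicates of KO correlated only weakly with that of WT (r = 0.183 over 12266 genes, each from 1 pair of libraries). The replicate numbers were therefore not used to pair libraries. Among the genes described the block changed the calls of Rpa1 (limma adjusted p = 0.0189) and Pole4 (0.0323). MUT against HET gave 29 to 31 genes lower at 2-fold. With no filter on low values the difference between the MUT and KO effects was called for 0 genes (492 with the filter), HET against WT for 344 genes (1699) and 0 of the 41 (12), and MUT against KO for 5 genes (1389) and 0 of the 41 (26); the cause was not tested. A pseudocount of 0.1 gave 7 of the 41 in HET against WT. With 1 library left out, the effect difference was called for 286 to 1192 genes and 0 to 1 of the 41, HET against WT for 1018 to 2597 genes and 1 to 24 of the 41, and MUT against KO for 1303 to 2144 genes. Among the genes and comparisons checked, directions turned only for Orc2, Orc3, Pole3, E2f8 and Ccne2, none of which passed in the comparison concerned. Ccne2 was not near 0, with a main difference of 0.27 in HET against WT. In KO against WT, Orc2 was 0.012 with quantile normalization and -0.079 to 0.077 with 1 library left out, Orc3 -0.11 to 0.24 and Pole3 -0.25 to 0.099; in HET against WT, E2f8 was -0.0020 to 0.23 and Ccne2 -0.00021 to 0.54. Depth is unknown, groups hold 1 or 2 libraries, and lone libraries are assumed to vary like the replicates.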
